A study of Mus musculus with 4 samples.

Results

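Ephrin-B2, its receptor EphB4 and 6 relatives were followed through the cell types of the mouse ventricle at embryonic day 14.5. The members were the rows of the deposited matrices whose symbol is *Efnb2*, *Efnb1*, *Efna1* or *Efna5* for the ephrins and *Ephb4*, *Ephb2*, *Epha4* or *Epha7* for the Eph receptors, 8 of 32285 genes, and each symbol was found in all 4 libraries. Ventricles of *Ets1* endothelial knockout embryos (*Tie2*Cre;*Ets1* fl/fl, "eKO") were compared with those of controls (*Tie2*Cre;*Ets1* fl/+) by single-cell RNA-seq. There were 2 libraries a group, and each library pooled the ventricles of 3 embryos. Both groups carry the *Tie2*Cre transgene and at least 1 floxed allele, so the controls can lose 1 copy of *Ets1*. *Tie2*Cre acts in endothelium and endocardium, in the cushion mesenchyme that arises from endocardium, and in blood cells. The question for these genes is how each one was distributed over arterial, venous and endocardial cells and whether that differed without endothelial *Ets1*.

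Ephrins are ligands held at the cell surface, and Eph receptors are receptor tyrosine kinases on the neighbouring cell. Signals pass both ways, forward into the cell with the receptor and in reverse into the cell with the ephrin, and they set repulsion, adhesion and borders between cells. In blood vessels ephrin-B2 is known as an arterial marker and EphB4, its main vascular receptor, as a venous one, and mice without either gene fail to remodel their vessels and heart trabeculae.

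The 4 libraries held 45551 barcodes with 76931208 to 124140739 unique molecular identifiers (UMIs, each standing for 1 captured RNA molecule) a library before filtering, and 37913 cells remained after it. A gate on marker genes, none of them a member, called 1670 cells coronary endothelium-like and 5359 endocardium-like. The coronary cells were divided into 317 arterial-like, 449 venous-leaning and 904 other cells, and the endocardium into 624 valve-like and 4735 other cells; 140 cells lay within 0.05 score units of the arterial cut and 253 of the venous cut. Of 5 further arterial genes kept out of the gate (*Dll4*, *Jag1*, *Jag2*, *Nrp1*, *Igfbp3*), the summed level was 1148 to 1809 UMIs per 1e6 UMIs of the class (CPM) in the arterial cells and 492 to 643 CPM in the venous-leaning cells. The venous-leaning label was the weaker one, since 5 venous genes kept out of the gate summed to 491 to 669 CPM there and 276 to 406 CPM in arterial cells. UMIs were summed per class and library, and a level is given as CPM of that sum. The deleted gene *Ets1* measured 276 and 258 CPM in control endocardium and 118 and 93.6 CPM in *Ets1* eKO endocardium (log2 difference −1.27, adjusted p = 0.00336, edgeR), and 374 and 325 against 184 and 125 CPM in coronary endothelium (log2 difference −1.10, adjusted p = 0.0143). In arterial cells *Ets1* was 264 and 258 CPM against 158 and 124 CPM and was not called (log2 difference −0.81, adjusted p = 0.112). These UMIs were not resolved to the deleted exons. The median depth was lowest in eKO 2 (5632 UMIs a barcode, against 8222 to 8630 in the other libraries). The embryos' sex also differed: cells with *Xist* and no Y-linked UMI made up 0% of control 1, 42.0% of control 2, 41.5% of eKO 1 and 78.4% of eKO 2. Library pairs shared 19 to 47 barcodes, where random reuse gives 11.7 to 27.8, and none was removed. The replicates are pools, so each p-value of eKO against control sets the difference against the spread between these pools. Comparisons of classes and interaction terms were fitted with library as a term. Their p-values rest on how class differences varied between libraries.

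**Figure D1:**
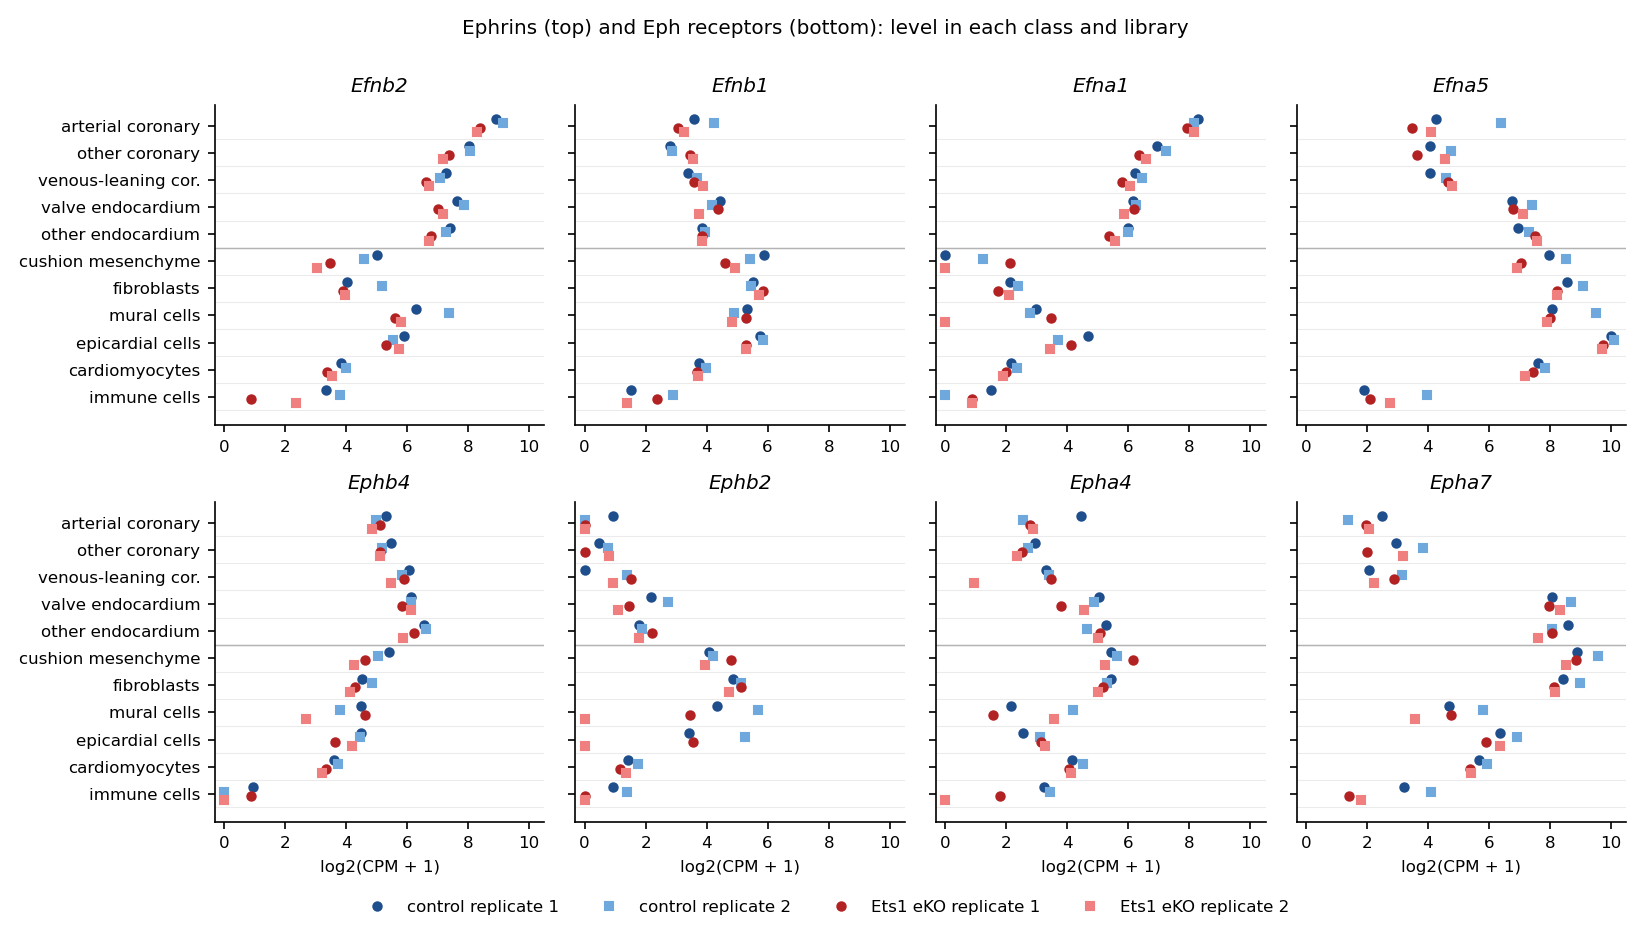
Level of each ephrin (top row) and each Eph receptor (bottom row), as log2(CPM + 1) on the x axis, in 11 cell classes (rows) and 4 libraries (points, control blue and eKO red). *Efnb2* and *Efna1* peak in arterial cells, *Ephb4* in endocardium, and *Efna5*, *Efnb1* and *Ephb2* outside the endothelium, while *Epha7* is high in endocardium, cushion mesenchyme and fibroblasts and low in coronary endothelium.

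*Efnb2*, the gene of the transmembrane ligand ephrin-B2, was highest in arterial cells and lowest in venous-leaning cells within the coronary endothelium. It lies on mouse chr8:8617434-8661242 (GRCm38, minus strand). Its level was 478 and 570 CPM in the arterial cells of controls 1 and 2 and 332 and 314 CPM in those of eKO 1 and 2. Other coronary cells gave 258, 268, 165 and 144 CPM in the same order, and venous-leaning cells 155, 136, 98.1 and 103 CPM. Each of the 4 libraries kept the order arterial, other, venous-leaning. The arterial level exceeded the venous-leaning one by 1.87 on the log2 scale (standard error, SE, 0.10, adjusted p = 2.71e-10, edgeR with library as a term) and that of other coronary cells by 1.05 (adjusted p = 9.77e-12), and the venous-leaning level was lower than that of other coronary cells (log2 difference −0.82, adjusted p = 7.00e-08). The arterial and venous-leaning cells also differed in 5 cycling markers, which summed to 207 to 550 CPM and 1124 to 1398 CPM, and in 7 mural cell markers, which summed to 295 to 428 CPM and 46.3 to 74.2 CPM. Of the mural markers *Higd1b* was at 0 in both classes, and *Rgs5*, *Pdgfrb* and *Myh11* were at 0 in the venous-leaning cells. The part of these markers in the differences between the classes was not tested, here or for the other members. Valve endocardium gave 198 and 232 CPM in the controls, compared with 129 and 143 CPM in the eKO, above other endocardium with 167 and 154 CPM against 109 and 104 CPM (valve against other, log2 difference 0.36, adjusted p = 0.00239). All coronary endothelium exceeded all endocardium by 0.84 (adjusted p = 1.26e-08). Outside the endothelium *Efnb2* measured 47.7 to 164 CPM in mural cells, a range that overlapped that of venous-leaning cells, 38.4 to 58.9 CPM in epicardial cells and 9.47 to 34.9 CPM in cardiomyocytes and fibroblasts together.

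The promoter sequences of *Efnb2*, *Ephb4* and *Efna1* are shown because ETS1 is a transcription factor whose family binds a GGAA core and because the levels of these 3 genes differed between arterial and venous-leaning cells. They run from 250 bases before to 50 bases after the start of transcription, 5′ to 3′ on the gene's strand, from RefSeq (GRCm38.p6). The core was searched in the forms CCGGAA and AGGAAG, on both strands, and capitals mark a match in either orientation. Of 32851 promoters of this length 14.9% hold CCGGAA and 35.4% hold AGGAAG. *Efnb2* (chr8:8661193-8661492, minus strand) and *Ephb4* (chr5:137349859-137350158, plus strand) have neither. *Efna1* has a pair of listed starts, of which the upstream one (chr3:89280902-89281201, minus strand) has neither form and the downstream one (chr3:89279596-89279895, minus strand) has AGGAAG at 2 places, read as CTTCCT.
Efnb2: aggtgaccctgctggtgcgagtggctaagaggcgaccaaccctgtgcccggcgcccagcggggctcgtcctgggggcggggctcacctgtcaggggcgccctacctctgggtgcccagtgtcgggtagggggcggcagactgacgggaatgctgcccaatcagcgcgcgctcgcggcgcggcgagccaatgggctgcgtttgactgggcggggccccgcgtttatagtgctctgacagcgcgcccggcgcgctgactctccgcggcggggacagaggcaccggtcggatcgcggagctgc
Ephb4: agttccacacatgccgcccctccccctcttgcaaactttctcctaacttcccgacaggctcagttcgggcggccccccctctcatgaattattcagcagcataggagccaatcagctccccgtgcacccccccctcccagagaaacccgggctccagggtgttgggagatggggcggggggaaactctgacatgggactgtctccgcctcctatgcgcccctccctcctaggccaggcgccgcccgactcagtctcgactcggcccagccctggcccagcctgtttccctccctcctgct
Efna1 upstream start: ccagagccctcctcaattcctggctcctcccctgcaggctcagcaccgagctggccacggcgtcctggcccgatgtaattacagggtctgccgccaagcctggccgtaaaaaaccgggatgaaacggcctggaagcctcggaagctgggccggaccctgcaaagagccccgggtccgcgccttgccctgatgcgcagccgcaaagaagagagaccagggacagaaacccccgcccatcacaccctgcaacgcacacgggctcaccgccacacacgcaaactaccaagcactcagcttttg
Efna1 downstream start: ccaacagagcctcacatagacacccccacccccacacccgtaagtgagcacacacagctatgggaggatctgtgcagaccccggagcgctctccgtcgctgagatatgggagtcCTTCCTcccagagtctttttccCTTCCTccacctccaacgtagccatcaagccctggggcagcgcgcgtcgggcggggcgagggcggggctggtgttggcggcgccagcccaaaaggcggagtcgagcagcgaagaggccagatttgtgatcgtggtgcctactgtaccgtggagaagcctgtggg
Among the other promoters *Efna5* has 2 AGGAAG matches, *Efnb1* 1 AGGAAG match and *Ephb2* 1 CCGGAA match. A match describes the letters and is not a binding site, and a window without one says nothing of the factor.

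*Efnb2* was lower in the *Ets1* eKO in every endothelial class, and in none of them did the 2 groups of libraries overlap, as was so, with eKO lower, for 27.2% of genes in arterial, 22.2% in venous-leaning and 29.7% in other coronary cells, 24.6% in valve and 32.6% in other endocardium, although the test was passed only in the endocardium. Lower levels without overlap were also found in most classes outside the endothelium, whose values are given after the endothelial ones. In all endocardium it measured 172 and 167 CPM in the controls, compared with 112 and 108 CPM in the eKO, means of 170 ± 2.86 and 110 ± 2.95 (SD, n = 2), so that the eKO level was 64.8% of control. The log2 difference was −0.56 (SE 0.11, 95% interval −0.82 to −0.31, adjusted p = 0.0429, edgeR quasi-likelihood test with Benjamini-Hochberg adjustment). Marker sums moved with group in these endocardial cells. The 9 endocardial gating markers summed to 3169 and 3022 CPM in the controls, compared with 2808 and 2479 CPM in the eKO, 7 fibroblast markers to 602 and 572 CPM against 695 and 659 CPM, and 7 mural cell markers to 47.7 and 45.2 CPM against 68.4 and 64.1 CPM. The 8 arterial gating markers summed to 694 and 739 CPM against 552 and 507 CPM, the 5 arterial genes kept out of the gate to 495 CPM in either control against 411 and 427 CPM, the 5 venous-leaning gating markers to 569 and 517 CPM against 443 and 442 CPM, and the 9 coronary markers to 276 and 256 CPM against 303 and 334 CPM. The 5 venous genes kept out of the gate were instead higher in the eKO, at 1424 and 1587 CPM against 1418 and 1226 CPM in the controls. Lymphatic markers (5 genes) summed to 87.8 and 88.3 CPM in the controls, compared with 138 and 97.0 CPM in the eKO. The 5 valve markers summed to 419 and 442 CPM against 417 and 313 CPM, and 7 cushion markers to 141 and 167 CPM against 125 and 98.5 CPM. No marker of these lists was at 0 in all libraries. Their part in the *Efnb2* difference was not tested. In all coronary endothelium the levels were 266 and 274 CPM against 176 and 168 CPM (63.7% of control), and the log2 difference of −0.57 (SE 0.14, interval −0.88 to −0.26) had an adjusted p of 0.0968. In these coronary cells the arterial gating markers summed to 1095 and 1060 CPM in the controls, compared with 963 and 873 CPM in the eKO, the arterial genes kept out of the gate to 1027 and 936 CPM against 699 and 660 CPM, and the venous-leaning gating markers to 527 and 539 CPM against 447 and 408 CPM. The venous genes kept out of the gate overlapped, with 392 and 444 CPM against 424 and 525 CPM. The coronary markers summed to 8568 and 7152 CPM against 8937 and 10130 CPM, and the endocardial ones to 94.3 and 92.9 CPM against 102 and 110 CPM. Lymphatic markers summed to 10.0 and 9.99 CPM against 13.2 and 13.7 CPM. The 7 cushion markers summed to 21.0 and 23.3 CPM against 11.5 and 13.5 CPM, and 7 immune markers to 21.0 and 13.0 CPM against 9.75 and 11.6 CPM. None of these markers was at 0 in all libraries, and their part was likewise not tested. The difference was −0.60 in arterial cells (adjusted p = 0.217), −0.51 in venous-leaning cells (adjusted p = 0.236), −0.69 in other coronary cells (adjusted p = 0.0836), −0.62 in valve endocardium (adjusted p = 0.124) and −0.53 in other endocardium (adjusted p = 0.0452). These classes come from the same 4 libraries and are not independent of each other. The coronary and endocardial effects differed by −0.02 (adjusted p = 0.966), and the arterial and venous-leaning ones by −0.06 (interaction terms, adjusted p = 0.950), the second of which changed sign without control 2 (0.11) and without eKO 2 (0.01).

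Outside the endothelium *Efnb2* was 13.2 and 15.1 CPM in control cardiomyocytes, compared with 9.47 and 10.6 CPM in eKO ones, 70.9% of control (log2 difference −0.37, adjusted p = 0.420, edgeR). Fibroblasts gave 15.3 and 34.9 CPM against 14.0 and 14.6 CPM (log2 difference −0.71, adjusted p = 0.496), mural cells 76.6 and 164 CPM against 47.7 and 54.7 CPM (log2 difference −1.14, adjusted p = 0.855) and immune cells 9.25 and 12.9 CPM against 0.831 and 4.11 CPM, from 1 to 10 UMIs a library (log2 difference −2.03, adjusted p = 0.908). Cushion mesenchyme had 31.4 and 22.8 CPM against 10.1 and 7.29 CPM, from 2 to 17 UMIs a library, too few for the test. In these 5 classes both eKO libraries lay below both controls, and in epicardial cells, with 58.9 and 46.0 CPM against 38.4 and 52.3 CPM, the groups overlapped. Of all genes tested, 38.1% lay below in this way in cardiomyocytes, 33.0% in fibroblasts, 25.7% in mural cells and 23.4% in cushion mesenchyme. That share is not given for immune cells. The differences between endothelial and other classes were not tested.

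The endocardial call rested on both controls, since the adjusted p was 0.278 without control 1 and 0.216 without control 2, with log2 differences of −0.54 and −0.56. The coronary difference passed without eKO 1 (−0.59, adjusted p = 0.00907) and without eKO 2 (−0.55, adjusted p = 0.0388), but had an adjusted p of 0.386 without control 1 and 0.520 without control 2. Other endocardium lost its call without control 1 (adjusted p = 0.340) or control 2 (adjusted p = 0.236), with the doubled gate margin (adjusted p = 0.0522) and with the gate on thinned cells (adjusted p = 0.0575), other coronary cells gained one without eKO 1 (adjusted p = 0.00168) or eKO 2 (adjusted p = 0.0483), and valve endocardium gained one without eKO 2 (adjusted p = 0.0477). Among cells with *Xist* and no Y-linked UMI, endocardial *Efnb2* was 156 CPM in control 2 against 106 and 109 CPM in eKO 1 and eKO 2. Among cells with Y-linked UMIs and no *Xist* it was 174 and 176 CPM in the controls against 112 CPM in eKO 1. Coronary *Efnb2* was 305 CPM against 178 and 168 CPM in the first set of cells and 272 and 254 CPM against 171 CPM in the second. Each set has a single library on one side, so no test was made within it.

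The arterial gating markers were also lower in the arterial cells of the eKO, with a summed level of 2820 and 2742 CPM in the controls, compared with 2360 and 2168 CPM in the eKO. The arterial genes kept out of the gate summed to 1571 and 1809 CPM against 1226 and 1148 CPM. Other lists moved too. Cycling markers summed to 207 and 386 CPM against 441 and 550 CPM, and coronary markers to 7822 and 6953 CPM against 9479 and 11764 CPM. Fibroblast markers summed to 87.1 and 30.6 CPM against 18.9 and 12.9 CPM. Epicardial markers gave 94.5 and 83.7 CPM against 146 and 118 CPM, with *Upk3b*, *Msln* and *Lrrn4* at 0. The part of all these markers in the *Efnb2* difference was not tested. When all coronary cells were instead placed in 6 bins of their arterial minus venous marker score, *Efnb2* in the controls was 156 and 165 CPM in the bin below −0.4 and 493 and 553 CPM between 0.2 and 0.4. In eKO it was 80.8 and 96.8 CPM and then 291 and 282 CPM in the same 2 bins. The gap was smaller in the most arterial bin, above 0.4, with 465 and 597 CPM in the controls, compared with 420 and 383 CPM in the eKO. The eKO libraries lay below both controls in 6 of 6 bins, which hold 18 to 229 cells a library each. The bins come from the same 4 libraries and are not independent of each other. The share of all genes lying below in this way was not counted by bin. Of the other members *Efna1* lay below in 4 of 6 bins, *Ephb4* and *Epha7* in 2, *Efna5*, *Efnb1* and *Epha4* in 1 and *Ephb2* in 0. Arterial cells were 18.9% and 20.2% of coronary cells in controls and 18.4% and 18.9% in eKO, whereas venous-leaning cells were 31.3% and 33.5% against 24.6% and 22.6%.

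**Figure D2:**
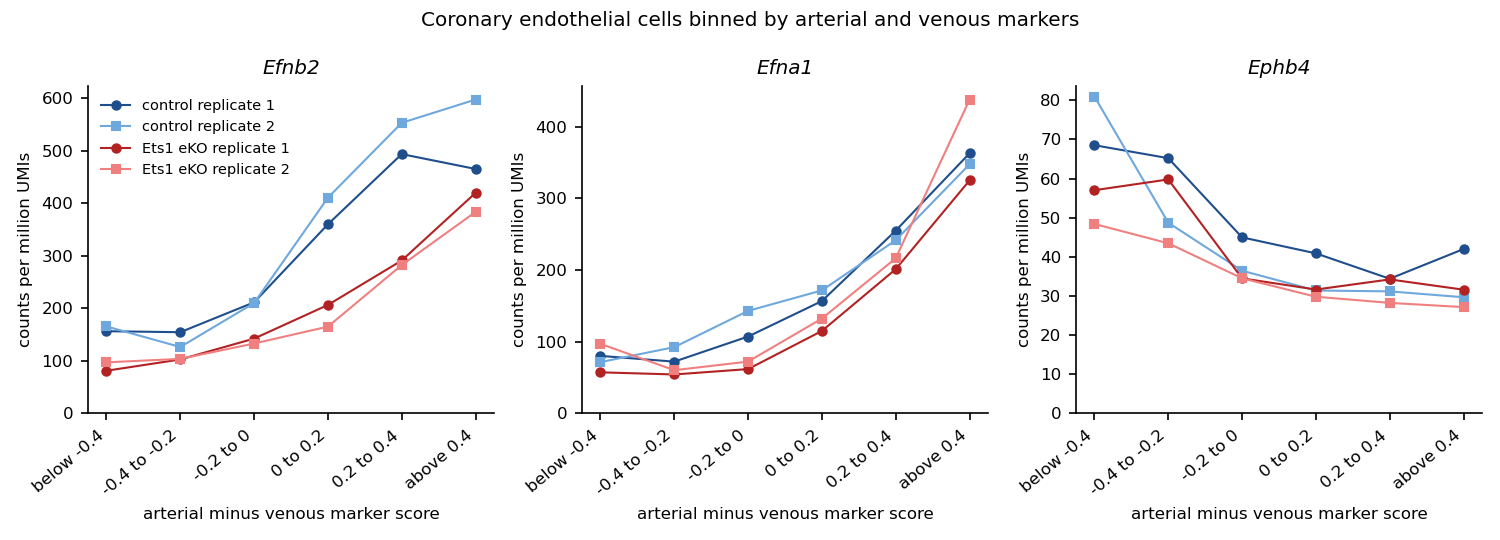
Levels of *Efnb2*, *Efna1* and *Ephb4* (y axis, CPM) in coronary endothelial cells binned by arterial minus venous marker score (x axis, 6 bins from venous to arterial), 1 line a library. Both eKO lines for *Efnb2* run below both control lines in all 6 bins, *Efna1* is higher toward the arterial end in both groups, and *Ephb4* lower.

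*Efnb1*, on the X chromosome (chrX:99136130-99148991), encodes ephrin-B1, a second transmembrane ligand. It was mainly mesenchymal, with 45.2 and 42.8 CPM in control fibroblasts and 56.2 and 51.7 CPM in eKO fibroblasts. Epicardial cells gave 53.0 and 57.0 CPM against 38.4 and 37.8 CPM, and the groups were thus apart in opposite directions in these 2 cell types, neither past the threshold. Cushion mesenchyme gave 57.5 and 41.6 CPM against 23.5 and 29.2 CPM (log2 difference −0.80, adjusted p = 0.620). Endothelial levels were 5.95 to 20.7 CPM. Arterial cells had a mean of 14.4 ± 4.73 CPM in the controls and 7.91 ± 0.934 CPM in the eKO (SD, n = 2), without overlap, from 5 to 12 UMIs a library, too few for the test. In other coronary endothelium the controls had 5.95 and 6.29 CPM and the eKO 9.86 and 10.7 CPM, from 9 to 29 UMIs a library (log2 difference 0.83, interval 0.06 to 1.61, adjusted p = 0.395, edgeR). Its level was lower in coronary endothelium than in endocardium (log2 difference −0.36, adjusted p = 0.0328), a call that was lost without control 1 (adjusted p = 0.160), control 2 (adjusted p = 0.0749) or eKO 1 (adjusted p = 0.0948).

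*Efna1* (chr3:89271733-89281142, minus strand) encodes ephrin-A1, a ligand anchored to the membrane by a lipid and known in endothelium. It followed the same arterial gradient as *Efnb2*. Arterial cells had 314 and 282 CPM in the controls, compared with 241 and 286 CPM in the eKO, with overlap between the groups. Other coronary cells had 123 and 151 CPM against 81.0 and 93.8 CPM and venous-leaning cells 72.9 and 87.0 CPM against 54.6 and 65.9 CPM, with no overlap. Arterial levels exceeded venous-leaning ones by 2.12 on the log2 scale (adjusted p = 3.18e-10), and coronary endothelium exceeded endocardium by 1.42 (adjusted p = 8.33e-10, edgeR).

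The eKO difference of *Efna1* was −0.09 in arterial cells (interval −0.50 to 0.32) and −0.56 in other coronary cells (interval −0.93 to −0.19, adjusted p = 0.206, edgeR), the latter past the threshold without eKO 2 (−0.67, adjusted p = 0.0296) and −0.41 without control 2 (adjusted p = 0.788). In other endocardium the levels were 62.4 and 62.8 CPM against 40.7 and 45.8 CPM, 69.1% of control (log2 difference −0.47, adjusted p = 0.0917), and without eKO 2 the difference of −0.58 passed (adjusted p = 0.0390), while without eKO 1 it was −0.37 (adjusted p = 0.136). All endocardium gave −0.42 (interval −0.70 to −0.15, adjusted p = 0.121). Valve endocardium, with 69.9 and 74.9 CPM against 71.0 and 57.3 CPM, overlapped.

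*Efna5* (chr17:62604184-62881317, minus strand) encodes ephrin-A5, another lipid-anchored ligand. Its highest level was in epicardial cells, 1034 and 1104 CPM in the controls, compared with 862 and 841 CPM in the eKO. Endocardium had far more than coronary endothelium (log2 difference of coronary against endocardium −2.71, adjusted p = 5.14e-09, edgeR). In other endocardium both eKO libraries lay above both controls, with 124 and 158 CPM in the controls, compared with 181 and 191 CPM in the eKO (log2 difference 0.46, interval 0.13 to 0.79, adjusted p = 0.120; 0.52 with adjusted p = 0.0291 without eKO 1 and 0.28 with adjusted p = 0.619 without control 1). In the cushion mesenchyme it went the other way, from 248 and 369 CPM in controls to 131 and 120 CPM in eKO (log2 difference −1.26, SE 0.26, adjusted p = 0.0483). This call was kept in 9 of 13 alternative settings. The cushion call was lost without control 2, whose level was the highest (−0.93, adjusted p = 0.448), and with DESeq2 (adjusted p = 0.215). In these cushion cells 7 mural cell markers summed to 178 and 197 CPM in the controls, compared with 155 and 139 CPM in the eKO. The 8 arterial gating markers summed to 1305 and 1446 CPM against 1093 and 776 CPM. The 5 arterial genes kept out of the gate went the other way, with 54.9 and 68.5 CPM against 114 and 94.8 CPM. In the same order *Higd1b*, *Sox17* and *Dll4* were at 0 in all libraries. *Efna5* was 241 to 729 CPM in mural cells themselves, and the part of these markers was not tested. Fibroblasts had 375 and 543 CPM against 300.3 and 303 CPM, again with control 2 the highest.

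In arterial cells *Efna5* rested on few molecules. The 4 libraries held 20, 52, 7 and 15 UMIs, or 18.3, 83.7, 10.2 and 16.1 CPM, and 44 of the 52 UMIs of control 2 were in 3 of its 49 cells. The arterial eKO difference was −1.66 (adjusted p = 0.214, edgeR), and it passed the threshold without control 1 (−2.52, adjusted p = 1.63e-07), eKO 1 (−1.39, adjusted p = 0.0377) or eKO 2 (−2.06, adjusted p = 0.00841) and was −0.37 without control 2. Venous-leaning cells had 15.8 and 23.1 CPM in the controls, compared with 24.1 and 26.5 CPM in the eKO.

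*Ephb4*, on chr5:137350109-137378669 (plus strand), encodes the ephrin-B2 receptor EphB4 and ran opposite to its ligand. Venous-leaning cells had 66.0 and 56.7 CPM in the controls, compared with 59.2 and 43.0 CPM in the eKO, and arterial cells 38.5 and 30.6 CPM against 33.4 and 27.9 CPM. Within each library the venous-leaning level was the higher one. The arterial level was lower by a log2 difference of −0.66 (adjusted p = 0.00359, edgeR; 0.0971 with DESeq2), and the venous-leaning level exceeded that of other coronary cells by 0.55 (adjusted p = 0.00324; 0.0796 with DESeq2 and 0.0807 with the doubled gate margin). The highest levels were in other endocardium, 93.8 and 98.5 CPM in controls, so that coronary endothelium stood below endocardium (log2 difference −0.71, adjusted p = 3.99e-06).

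In the eKO *Ephb4* was 73.4 and 57.4 CPM in other endocardium, 68.1% of control and below both controls (log2 difference −0.50, SE 0.14, adjusted p = 0.0862, edgeR). All endocardium gave 90.3 and 93.3 CPM against 71.2 and 58.5 CPM (log2 difference −0.44, interval −0.73 to −0.15, adjusted p = 0.121). Neither passed in this fit. Both passed without the filter on low counts (adjusted p = 0.0312 and 0.0463) and without eKO 1, at −0.66 (adjusted p = 0.00769) and −0.56 (adjusted p = 0.0231), while without eKO 2 they were −0.35 (adjusted p = 0.173) and −0.32 (adjusted p = 0.227). Valve endocardium had 69.2 CPM in either control and 56.3 and 69.7 CPM in eKO, which overlapped. All coronary endothelium had 50.1 and 42.4 CPM against 40.2 and 34.4 CPM, and that difference of −0.24 had an interval of −0.59 to 0.11 and an adjusted p of 0.562. Immune cells, which should lack both genes, held 0 to 1 *Ephb4* UMIs a library.

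**Figure D3:**
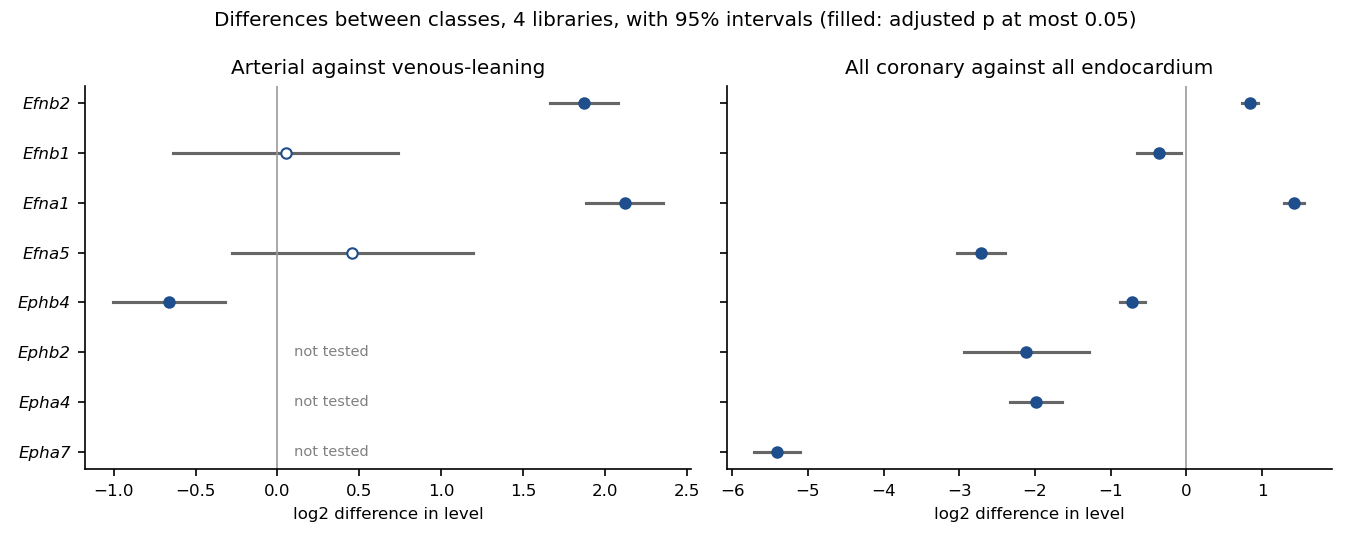
Log2 difference in level (x axis) of each member between endothelial classes over the 4 libraries, with 95% intervals; filled points passed an adjusted p of 0.05. *Efnb2* and *Efna1* lie on the arterial and coronary side, *Ephb4* on the venous-leaning and endocardial side, and *Epha7* shows the widest coronary to endocardial gap, −5.41.

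The other 3 receptors were sparse in coronary endothelium. *Epha7* (chr4:28813131-28967499, plus strand), a receptor for A-type ephrins, had 1.61 to 13.3 CPM in the coronary classes against 193 to 410 CPM in the endocardial ones, and the log2 difference of coronary against endocardium was −5.41 (SE 0.14, adjusted p = 8.45e-12, edgeR). Its highest level was in cushion mesenchyme, 473 and 756 CPM in the controls, compared with 461 and 372 CPM in the eKO. In other endocardium it measured 388 and 266 CPM against 266 and 193 CPM, with control 1 the highest and control 2 level with eKO 1 (log2 difference −0.45, adjusted p = 0.207, −0.68 with adjusted p = 0.0188 without eKO 1 and −0.17 with adjusted p = 0.812 without control 1). *Epha4* (chr1:77367185-77515088, minus strand), which binds both ephrin classes, had 24.2 to 37.6 CPM in other endocardium and 0.915 to 21.1 CPM in the coronary classes (coronary against endocardium −1.99, adjusted p = 2.26e-07). In valve endocardium *Epha4* was 32.1 and 28.3 CPM in the controls, compared with 13.0 and 22.5 CPM in the eKO, without overlap (log2 difference −0.76, adjusted p = 0.401). *Ephb2* (chr4:136647539-136835988, minus strand), a receptor for B-type ephrins, had 25.9 to 34.1 CPM in fibroblasts and 2 to 3 UMIs in the coronary endothelium of each library. Its endocardial level was 2.61 and 3.24 CPM in the controls, compared with 3.36 and 2.31 CPM in the eKO, which overlapped.

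Counted over the members, the class differences were frequent and the eKO calls few. Between coronary endothelium and endocardium 8 of 8 members differed, where 66.6% of all genes tested did, and 2 were higher (32.6% of genes) and 6 lower (34% of genes). Between arterial and venous-leaning cells it was 3 of 5 tested members against 39.4% of genes, between arterial and other coronary cells 2 of 5 against 28.4%, between venous-leaning and other coronary cells 3 of 7 against 14.9%, and between valve and other endocardium 4 of 8 against 26.7%. DESeq2 called 7 of 8 members between coronary endothelium and endocardium (54.8% of genes) and 2 in each comparison among coronary classes (21.8%, 13.7% and 5.43% of genes in the order above). Between valve and other endocardium it called 1 of 8, *Efnb2* (18.0% of genes). Its count equalled that of edgeR between arterial and other coronary cells and was lower in the other comparisons. The valve calls of *Ephb4* (−0.33, adjusted p = 0.0443), *Efna5* (−0.33, adjusted p = 0.0280) and *Efna1* (0.35, adjusted p = 0.0321) were kept in 3, 5 and 6 of 12 alternative settings. Among the settings that ended them were, for *Ephb4*, leaving out control 1 (adjusted p = 0.212), control 2 (adjusted p = 0.273) or eKO 1 (adjusted p = 0.0979), for *Efna5* leaving out control 1 (adjusted p = 0.0579), eKO 1 (adjusted p = 0.193) or eKO 2 (adjusted p = 0.134), and for *Efna1* leaving out eKO 1 (adjusted p = 0.235) or eKO 2 (adjusted p = 0.0525). The highest adjusted p over the 12 settings was 0.273, 0.738 and 0.580 in the same order. The valve call of *Efnb2* was lost with the gate on thinned cells (adjusted p = 0.105).

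For eKO against control, edgeR called 1 of 8 members, *Efnb2*, in all endocardium (2.01% of genes called) and in other endocardium (3.15% called), and 5 of the 8 had an unadjusted p below 0.05 in each, as did 19.4% and 20.7% of genes. None was called in arterial cells (4 tested, 0.27% of genes called), venous-leaning cells (6 tested, 1.06%), other coronary cells (7 tested, 0.616%), all coronary endothelium (7 tested, 1.04%) or valve endocardium (7 tested, 0.615%). An unadjusted p below 0.05 was found in these sets for 2, 1, 3, 2 and 2 members, against 10.2%, 9.54%, 11.5%, 12.7% and 10.7% of genes in the same order. DESeq2 called 0 members in these 5 sets (0.103%, 0.345%, 0.356%, 0.665% and 0.272% of genes) and 1 in each of the 2 endocardial sets named first (2.67% and 2.81% of genes). The median log2 difference of the tested members was −0.33 in all coronary endothelium and −0.23 in all endocardium, against 0.01 over all genes in either. Both eKO libraries lay below both controls for 4 of 7 tested members in all coronary endothelium (30.4% of genes) and for 5 of 8 in all endocardium (32.9% of genes). Tested as an interaction, the eKO effect differed between arterial and venous-leaning cells for 1 of 6 members, *Efna5* (0.93% of genes; DESeq2 0 members and 0.0214% of genes), and between coronary endothelium and endocardium for 0 of 8 (1.53% of genes; DESeq2 0 members and 0.350% of genes; unadjusted p below 0.05 for 2 members and 11.4% of genes).

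**Figure D4:**
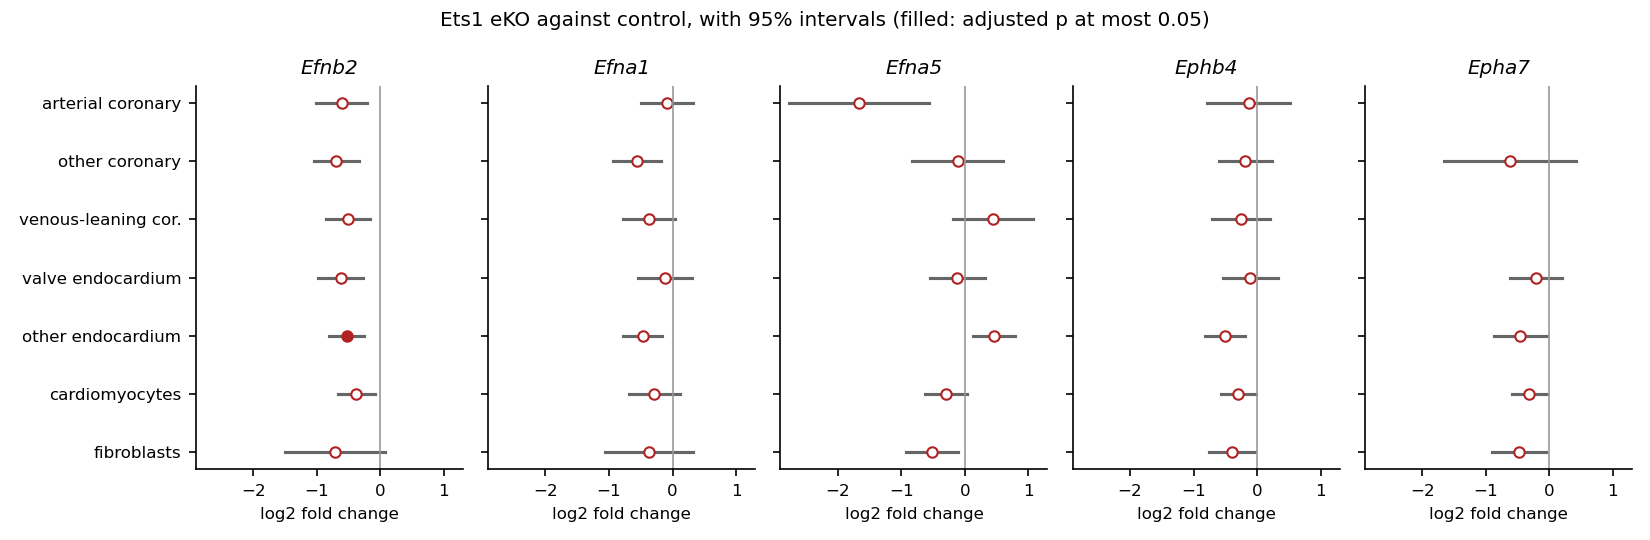
Log2 fold change of eKO against control (x axis) with its 95% interval, for *Efnb2*, *Efna1*, *Efna5*, *Ephb4* and *Epha7* in 5 endothelial classes, cardiomyocytes and fibroblasts, left blank where the filter on low counts removed the gene; filled points passed an adjusted p of 0.05. *Efnb2* lies between −0.69 and −0.51 in the 5 endothelial classes, and other endocardium holds its 1 filled point.

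Outside the endothelium the members were lower in eKO more often than higher, with few calls. In cardiomyocytes both eKO libraries lay below both controls for 8 of 8 members, where 38.1% of genes did. There *Efna5*, with 195 and 227 CPM against 173 and 143 CPM, and *Epha7*, with 50.5 and 60.6 CPM against 40.3 and 41.9 CPM, had the highest levels, and edgeR called 0 members and 0% of genes (unadjusted p below 0.05 for 3 members and 11.6% of genes), and DESeq2 called 0 members and 0.206% of genes. In fibroblasts 6 of 8 lay below (33% of genes) and 0 were called (0.00688% of genes called; DESeq2 0 members and 0.694% of genes; unadjusted p below 0.05 for 4 members and 10.8% of genes). In cushion mesenchyme 1 of 5 tested members, *Efna5*, was called (0.444% of genes), and in epicardial, mural and immune cells none was (7, 6 and 1 tested; 0%, 0% and 0.0227% of genes called; DESeq2 0 members and 0%, 0% and 0.0113% of genes). In those 3 classes 1, 3 and 1 members had an unadjusted p below 0.05, against 6.17%, 5.39% and 5.05% of genes.

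The share of cells in which a UMI was seen was compared after each cell was thinned to 2000 UMIs, because depth differed. Cells with fewer than 2000 UMIs were left out of these shares. *Efnb2* was detected in 64.2% and 49.0% of arterial cells of the controls and in 46.0% and 42.1% of those of eKO. In endocardium the shares were 29.1% and 24.9% against 21.4% and 18.7%, means of 27.0% ± 2.95 and 20.0% ± 1.87 (SD, n = 2, exact two-sided permutation p = 0.333, the smallest that 2 against 2 libraries allow). Immune cells, which should lack *Efnb2*, gave 0.633% and 1.20% in controls, 0% of 172 cells in eKO 1, which allows a share of up to 1.74%, and 1.18% in eKO 2. Their median depth was 3981 to 7021 UMIs, against 4354 to 7523 in the endocardial cells counted.

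*Ephb4* was detected in 14.7% and 16.3% of control endocardial cells and in 13.1% and 11.3% of eKO ones, and in coronary cells the groups overlapped (9.73% and 8.19% against 8.41% and 7.93%). Both *Efnb2* and *Ephb4* were seen in the same endocardial cell in 5.52% and 4.32% of cells of the controls, compared with 2.92% and 1.90% of cells of the eKO. The single share of each gene was also lower in the eKO, and a change of joint detection beyond that was not tested. Without thinning, and over cells of any depth, the endocardial shares were 61.3% ± 0.877 against 42.9% ± 10.6 for *Efnb2*. For *Ephb4* they were 47.1% ± 3.87 against 30.6% ± 10.4 (SD, n = 2). Intervals and limits on shares cover counting error only.

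**Figure D5:**
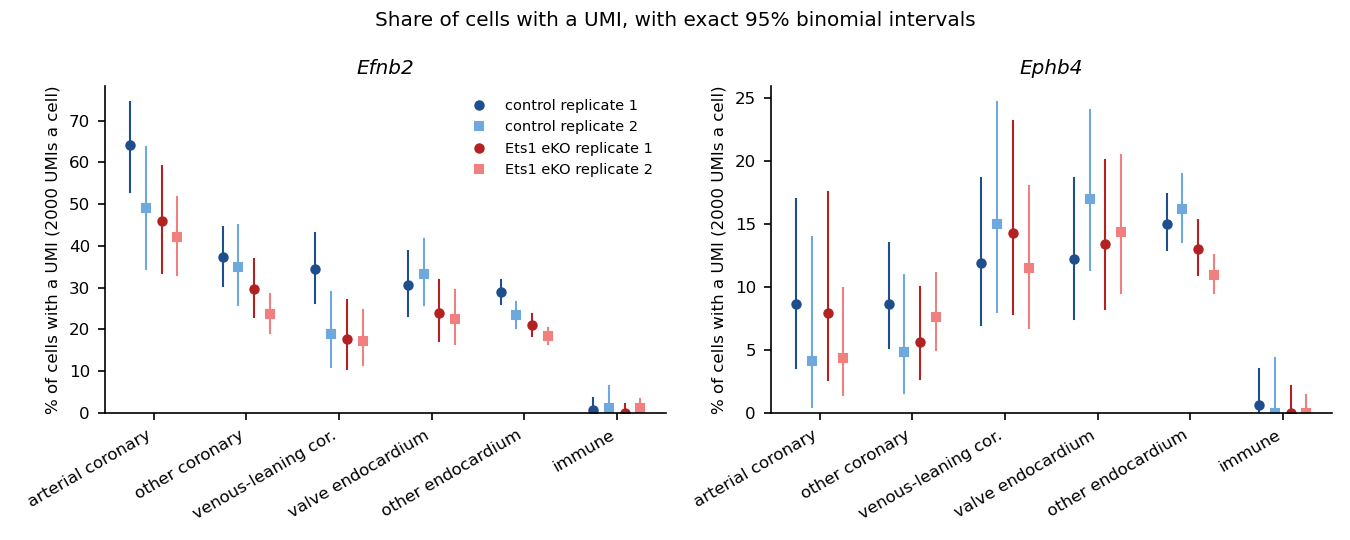
Percent of cells with a UMI of *Efnb2* and *Ephb4* after thinning to 2000 UMIs a cell (y axis), in 5 endothelial classes and immune cells (x axis), 1 point a library with its exact 95% binomial interval. Cells under 2000 UMIs were left out. *Efnb2* is seen most often in arterial cells, *Ephb4* in the endocardial and venous-leaning classes, and immune cells stay near 0%.

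Few other genes of the pathway passed the same test. Of 14 other Eph receptors and ephrins, 3 were tested in all coronary endothelium and 1 passed, *Ephb1*, a receptor for B-type ephrins, where 1.04% of genes did. Coronary *Ephb1* was 64.9 and 81.1 CPM in the controls, compared with 32.2 and 19.2 CPM in the eKO (log2 difference −1.43, SE 0.21, adjusted p = 0.00723, edgeR), and it passed in each of 13 alternative settings. In other coronary cells it was 70.3 and 68.5 CPM against 23.1 and 12.9 CPM (log2 difference −1.89, adjusted p = 0.00221), while in arterial cells the difference was −0.77 (adjusted p = 0.364) and in venous-leaning cells −1.13 (adjusted p = 0.0619). In all endocardium *Ephb1* was at most 1.37 CPM. Thus 0 of the 14 genes passed in the arterial, venous-leaning, valve, other and all endocardial sets, where 1, 1, 3, 7 and 8 were tested.

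Of 29 intracellular partners of Eph and ephrin signalling, 24 to 28 were tested in each endothelial class, and *Tiam1*, an exchange factor for the GTPase Rac, was the 1 that passed, in valve endocardium (0.615% of genes called). It measured 83.4 and 92.5 CPM in the controls, compared with 40.7 and 47.2 CPM in the eKO (log2 difference −0.97, adjusted p = 0.0399, edgeR). That call was lost without control 2 (adjusted p = 0.137) or eKO 1 (adjusted p = 0.0704) and with DESeq2 (adjusted p = 0.631). In the valve cells the arterial gating markers summed to 451 and 779 CPM in the controls, compared with 369 and 372 CPM in the eKO. The arterial genes kept out of the gate summed to 268 and 256 CPM against 156 and 206 CPM, and fibroblast markers to 775 and 814 CPM against 721 and 618 CPM. Lymphatic markers went the other way, with 267 and 275 CPM against 334 and 282 CPM and *Ccl21a* at 0. The part of these markers in the *Tiam1* difference was not tested. The median log2 difference of the partners was −0.16 in all coronary endothelium and −0.16 in all endocardium, against 0.01 over all genes. *Arhgef15*, an exchange factor of endothelium, was 51.9 to 66.0 CPM in coronary endothelium and 40.1 to 50.3 CPM in endocardium, and no more than 6.86 CPM in any class outside the endothelium. Along with *Arhgef15* and *Tiam1*, partners that reached 50 CPM in at least 1 class included *Abl1*, *Acp1*, *Adam10*, *Anks1*, *Chn1*, *Crk*, *Fyn*, *Grb10*, *Grb2*, *Grip1*, *Itsn1*, *Nck1*, *Nck2*, *Ptpn11*, *Rasa1*, *Rgs3*, *Sdcbp*, *Shc1*, *Sipa1l1*, *Vav3* and *Yes1*. Of the other family members the receptor *Epha3* did so as well, with a mean over the 4 libraries of 202 CPM in cushion mesenchyme, 181 CPM in fibroblasts, 75.2 CPM in cardiomyocytes and at most 2.39 CPM in the endothelial classes.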

How the data were processed

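The authors deposited UMI counts per gene and cell, made from 10x Genomics 3' libraries (version 3.1 chemistry). The submitters' processing notes name Cell Ranger 7.1.0, Seurat 4.3.0 and mm10. Their removal of background RNA was not repeated. Kept cells had between 200 and 7000 detected genes, and mitochondrial, ribosomal and hemoglobin UMIs of no more than 20%, 35% and 2%. Doublets were scored against 2 simulated doublets a cell (90 neighbours, expected rate 0.8% per 1000 cells), and 3650 were removed. Cells were gated on mean marker scores (margin 0.05, minimum 0.2, arterial minus venous cut 0.2, valve cut 0.25). The cuts were set after the marker scores were seen and without the members' values, and 2106 cells stayed unassigned.

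Counts were summed per library and class (at least 20 cells a library) and tested with edgeR 4.0.16 (TMM, filterByExpr, quasi-likelihood, Benjamini-Hochberg over all genes, threshold 0.05), in R 4.3.3. DESeq2 1.42.0, total count scaling, no low-count filter, tighter cell limits (1000 genes or more and mitochondrial UMIs of 10% or less), no doublet removal, a gate on cells thinned to 2000 UMIs, a doubled margin, a replicate block and leaving out each library were the alternatives. Where cells were thinned, those under 2000 UMIs were left out. Scripts used Python 3.11.15 with scipy 1.17.1 and were tested on simulated data. There a true log2 change of 0.5 was called for 0 of 200 changed genes in arterial, other coronary and valve cells. It was called for 3 in venous-leaning cells, 7 in other endocardium, 9 in all coronary endothelium and 10 in all endocardium. A change of 1 was called for 93 to 149 of 200. A missing call thus does not show that a change near 0.5 is absent. Members and gene lists were chosen with earlier results of these data known. The text names the 8 members, *Ets1*, genes of 2 fixed pathway lists past the threshold in an endothelial class or at 50 CPM in 1 class, and for each member the 3 genes most like it over the classes, and 1 gene of the lists is not reported here. Same-numbered libraries share a number, and the labels do not say whether they were processed together.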

Additional observations from a re-analysis of the deposited data

Results flagged for a closer look

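The eKO effect on *Efna5*, the ephrin-A5 gene, differed between arterial and venous-leaning coronary endothelium. The interaction term was −2.02 on the log2 scale (SE 0.50, adjusted p = 0.0433, edgeR), where 0.93% of genes passed, and it was the 1 member of 6 tested that did. Control arterial cells held 18.3 and 83.7 CPM and eKO arterial cells 10.2 and 16.1 CPM, whereas venous-leaning cells held 15.8 and 23.1 CPM against 24.1 and 26.5 CPM. Of the 52 arterial UMIs of control 2, 23 were in 1 cell. Without control 2 the term was −1.08 (adjusted p = 0.637), without eKO 1 −1.81 (adjusted p = 0.550) and without eKO 2 −2.34 (adjusted p = 0.147), so the call rests on these libraries. DESeq2 gave −1.96 and did not call it.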

How the results depend on the processing

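Of the values recomputed under the alternatives, 585 kept their direction and their side of the threshold (or moved by less than the replicate spread), 54 lost a call, 37 gained one, 17 values with no test moved and 4 changed sign. For *Efnb2* the coronary eKO difference passed with the low-count filter off (−0.58, adjusted p = 0.0261) and with crossed pairs (−0.57), and was −0.60 to −0.55 with single libraries left out. The endocardial *Efnb2* call was lost under the replicate block (−0.56, adjusted p = 0.0555), as was that in other endocardium (−0.53, adjusted p = 0.0628), and had a range of −0.56 to −0.54 with single libraries left out. Endocardial *Ephb4* passed with the filter off (−0.45, adjusted p = 0.0463) and with crossed pairs (−0.44), and was −0.56 to −0.32 with single libraries left out. The lower arterial *Ephb4* was −0.65 and not called by DESeq2. The difference of the *Efnb2* effect between arterial and venous-leaning cells, −0.06, changed sign with the stricter cell filter (0.00014), with the thinned gate (0.22), without control 2 (0.11) and without eKO 2 (0.0097), and ran from −0.33 to 0.11 with single libraries left out. The cause of these shifts was not tested.

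The labels do not say whether the replicate numbers pair the libraries. Deviations of same-numbered libraries correlated at −0.199 to −0.00343 over the classes, which cannot decide whether those libraries were processed together. The replicate block called 71 genes in coronary endothelium and 420 in endocardium, against 119 and 271 without it, and crossed pairs, chosen after the data were seen, called 475 and 998 genes. With the filter off 380 and 1100 genes were called, and with single libraries left out 161 to 941 and 149 to 1340. In coronary endothelium DESeq2 called 76 genes and the doubled margin 78. Total count scaling gave 62 higher and 69 lower coronary calls, against 75 and 44, and 119 and 253 endocardial ones, against 124 and 147. The doubled margin left too few arterial cells to be fitted. Depth limits the sparse members most: arterial cells held 0 to 1 *Ephb2* and 1 to 5 *Epha7* UMIs a library.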

Other observations

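Genes that followed a member most closely over the cell types were listed by Pearson's r of mean log2 CPM over the 11 classes, among 10142 genes, as a description; the classes share 4 libraries. For *Efnb2* they were *Ehd2* (0.956), *Esam* (0.950) and *Tmsb10* (0.950). *Ehd2* encodes a protein of caveolae, and *Esam* an endothelial adhesion molecule that was one of the gating markers. For *Efna1* they were *Wdr37* (0.973), *Cav1* (0.964), the caveolin-1 gene and a gating marker of coronary cells, and *Exoc3l4* (0.963). For *Ephb4* they were *Dennd5b* (0.983), *Cbwd1* (0.971) and *Tspan6* (0.971).

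The remaining members had other neighbours. *Efna5* was followed by *Nenf* (0.990), *Smarca1* (0.982) and *Tmem9* (0.968), *Efnb1* by *Gas1* (0.972), *Tmem138* (0.971) and *Bicc1* (0.963), and *Ephb2* by *Garnl3* (0.974), *Pde1a* (0.972) and *Rgma* (0.964). *Epha7* was followed by *Bcl9l* (0.983), *Mir100hg* (0.974) and *Tut4* (0.971). The lowest values were those of *Epha4*, with *Upp2* (0.937), *Fopnl* (0.932) and *Srek1ip1* (0.929).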
